A study of Mus musculus with 36 samples.

Results

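The replication licensing genes examined here are the genes of the MCM helicase and of the factors that load, control and activate it: Mcm2, Mcm3, Mcm4, Mcm5, Mcm6, Mcm7, Mcm10, Cdc6, Cdt1 and Gmnn. They were taken by gene symbol from the array's annotation, which gave 20 of 45281 probes, and all 10 genes were among the 20637 tested. The study measured total RNA of astrocyte cultures on Illumina BeadChips to follow the response to dexamethasone, a synthetic glucocorticoid, over a day. Cultures came from P0-P2 C57B/6 mouse pups (labelled cortical, although the growth protocol names cortex or hippocampus), carried no genetic change in the labels, and were grown for 9 to 11 days in medium with serum until about confluent. Dexamethasone at about 100 nM or vehicle was given for 8 lengths of time (0.25 h, then 1 h, 2 h and 4 h, 6 h and 12 h, and lastly 18 h and 24 h), with a vehicle group at each. The 18 dexamethasone arrays and 18 vehicle arrays form 16 groups, of 3 arrays at 2 h and 4 h and of 2 at the other times. Whether replicates were separate cultures or litters is not stated, so p-values measure the spread between these arrays, which may be technical, and the small number of arrays limits their precision. These were not sorted cells, and in such bulk samples fewer cells of a type and less RNA per cell cannot be told apart. Of 9 astrocyte markers, 8 were above background on all 36 arrays and S100b on 19. The 8 arrays of 0.25 h and 1 h and 1 array of 12 h, the first vehicle replicate, stood apart in markers of other cells: the log2 of the summed microglial signal was 13.2 to 13.9 at 0.25 h and 1 h and 13.2 on that vehicle array, against 10.4 to 11.8 on the other 27 arrays. The mean log2 level of oligodendrocyte-lineage markers likewise was 8.81 to 9.05 at 0.25 h and 1 h and 8.94 on that vehicle array, against 7.36 to 8.06 on the others.

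Licensing prepares each origin of replication to fire once per cell cycle. The origin recognition complex together with Cdc6 and Cdt1 loads the ring of Mcm2 to Mcm7 onto DNA before S phase; geminin, the product of Gmnn, binds Cdt1 and blocks further loading, and Mcm10 takes part in turning the loaded ring into an active helicase. Transcription of these genes is known to depend on E2F factors in cells that enter the cycle, and astrocytes from newborn brain divide in culture.

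Promoters of 5 genes are shown that differ in the size of the late response and in the number and place of E2F-type matches. Those of Mcm3 and Mcm5 stand for the ring subunits that fell most at 24 h in the fit of all arrays. That of Mcm6 stands for the one that fell least on the probe used, and those of Cdc6 and Cdt1 for the loading factors. Each runs 5′ to 3′ from 250 bases before to 50 after the transcript start used in the RefSeq promoter table of build GRCm38.p6, and capitals mark matches to an E2F site. That start is the start of the gene in the RefSeq gene table for Mcm3, Mcm6 and Cdt1. For Mcm5 it lies 41 bases inside the listed gene, and for Cdc6 442 bases inside it, so the Cdc6 window lies wholly within the gene.
Mcm3 (chr1:20820263-20820562, minus strand): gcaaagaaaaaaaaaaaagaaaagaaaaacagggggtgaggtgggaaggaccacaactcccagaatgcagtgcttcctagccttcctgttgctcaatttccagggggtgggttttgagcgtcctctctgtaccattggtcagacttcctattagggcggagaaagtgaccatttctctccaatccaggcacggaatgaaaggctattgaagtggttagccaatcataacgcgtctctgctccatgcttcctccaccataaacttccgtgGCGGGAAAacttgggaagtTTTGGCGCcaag
Mcm5 (chr8:75109259-75109558, plus strand): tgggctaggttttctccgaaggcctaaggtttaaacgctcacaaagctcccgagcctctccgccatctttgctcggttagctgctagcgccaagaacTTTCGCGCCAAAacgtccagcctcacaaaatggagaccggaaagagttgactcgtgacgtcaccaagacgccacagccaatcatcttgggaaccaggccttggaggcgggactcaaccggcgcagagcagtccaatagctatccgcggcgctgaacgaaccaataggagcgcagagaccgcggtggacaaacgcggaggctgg
Mcm6 (chr1:128359656-128359955, minus strand): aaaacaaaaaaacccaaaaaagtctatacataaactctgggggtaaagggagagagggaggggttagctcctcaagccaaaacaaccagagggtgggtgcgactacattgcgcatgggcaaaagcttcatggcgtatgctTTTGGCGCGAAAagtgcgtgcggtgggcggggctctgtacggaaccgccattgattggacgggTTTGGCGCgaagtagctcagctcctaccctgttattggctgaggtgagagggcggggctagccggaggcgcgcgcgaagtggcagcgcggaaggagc
Cdc6 (chr11:98907901-98908200, plus strand): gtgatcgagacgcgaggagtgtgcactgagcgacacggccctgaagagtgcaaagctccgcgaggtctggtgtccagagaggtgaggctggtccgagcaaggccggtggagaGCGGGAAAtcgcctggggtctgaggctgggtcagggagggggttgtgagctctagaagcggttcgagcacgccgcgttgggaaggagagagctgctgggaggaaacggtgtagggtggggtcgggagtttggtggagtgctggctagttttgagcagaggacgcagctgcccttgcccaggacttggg
Cdt1 (chr8:122567765-122568064, plus strand): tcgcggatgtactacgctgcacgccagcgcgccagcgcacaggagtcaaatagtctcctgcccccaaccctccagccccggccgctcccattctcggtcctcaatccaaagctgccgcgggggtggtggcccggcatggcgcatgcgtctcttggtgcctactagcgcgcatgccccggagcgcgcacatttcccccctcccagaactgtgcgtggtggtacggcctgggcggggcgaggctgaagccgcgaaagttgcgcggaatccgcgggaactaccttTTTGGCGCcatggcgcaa
The letters searched, on both strands, were TTTCCCGC, TTTGGCGC, TTTCGCGC and TTTGCCGC for an E2F site. In the Mcm5 promoter the capitals are 1 place where matches on opposite strands overlap, and the Mcm6 promoter has 1 such place and 1 single match. Such a match was present in 6 of the 8 licensing genes with an entry (Mcm3, Mcm5, Mcm6, Mcm7, Cdc6 and Cdt1) and in 2.61% of 27025 genes in the table. Mcm2 and Mcm10 held no such match in this window. The Mcm10 window ends in TTTGGCG, the start of TTTGGCGC, so a match that crosses its end would not be seen. Mcm4 and Gmnn are named only. A CCAAT box (CCAAT) was present in 6 of the 8 genes, against 41.1% of all genes, and a CHR element (TTTGAA) in Mcm2 alone, against 20.2%. The full palindromic glucocorticoid receptor element was found in 0 of the 8 and in 0.0111% of all genes. These are descriptions of letters in a window and say nothing about binding. The genes are spread over the genome: Mcm3 and Mcm6 lie on chromosome 1, Mcm5 and Cdt1 on chromosome 8, and Mcm10, Mcm7, Mcm2, Cdc6, Gmnn and Mcm4 on chromosomes 2, 5, 6, 11, 13 and 16 in that order.

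Dexamethasone lowered the licensing genes late in the day. At 18 h and again at 24 h, 9 of the 10 genes had fallen relative to vehicle (limma, Benjamini-Hochberg adjusted p under 0.05 over all 20637 genes), and Gmnn was the exception. Lower calls made up 1.96% of all genes at 18 h and 2.03% at 24 h. The median difference of the 10 genes, dexamethasone minus vehicle on the log2 scale, was -1.84 at 18 h and -1.73 at 24 h, beside -0.02 and 0.02 for all genes. On the average over the 8 times 9 of the 10 had likewise fallen (6.65% of all genes were called lower), with a median of -0.66. All 10 had every dexamethasone array below every vehicle array at both 18 h and 24 h, as did 13.9% of all genes, and 8 of them (not Mcm7 and Gmnn) at 12 h as well (6.49% of all genes).

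**Figure D1:**
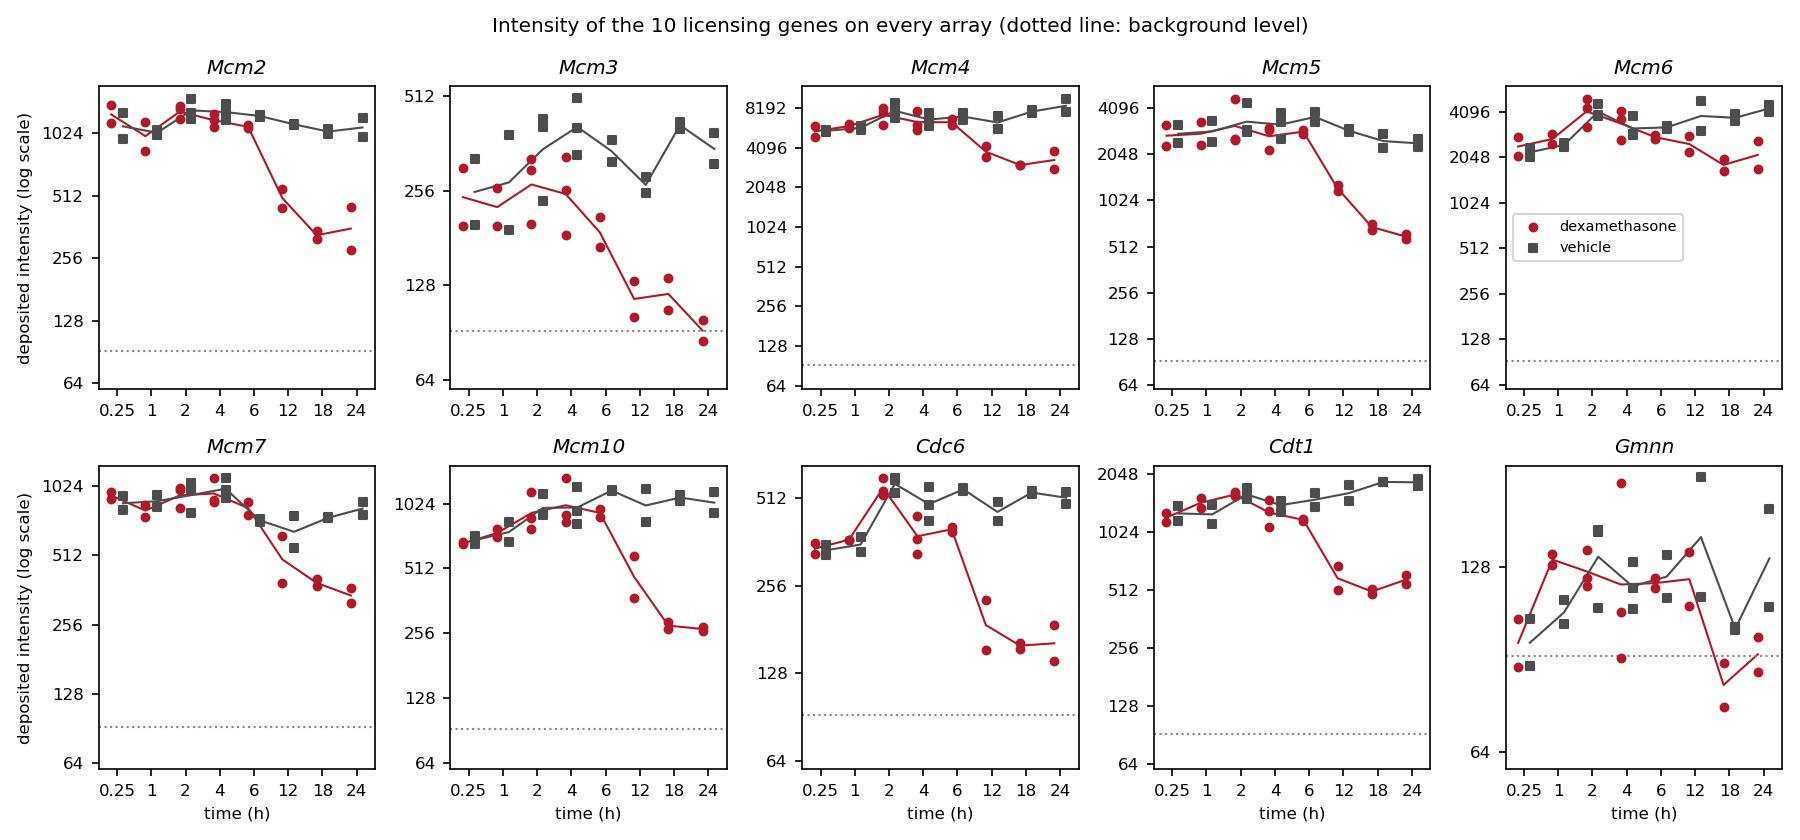
Deposited intensity (log axis) of each licensing gene on every array against time in hours; red circles are dexamethasone arrays, grey squares vehicle arrays, lines join group means of log2 values and the dotted line is the background level of 91.7. At 12 h 8 of the genes, and at 18 h and 24 h all 10, have every dexamethasone array below every vehicle array.

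Among the subunits of the ring, Mcm3 showed the largest difference in the fit of all arrays. Its intensity at 24 h was 99.2 and 85.5 on the dexamethasone arrays, against 388.6 and 310.0 on the vehicle arrays. At 18 h it was 107.0 and 135.4 with dexamethasone, against 423.5 and 402.4 with vehicle. The groups were far apart at both times, and the lower of the 24 h dexamethasone arrays was the only one of the 36 on which Mcm3 was not above background. The fall at 24 h was 5.45-fold (log2 difference -2.45, SE 0.39, adjusted p = 0.000137), the second lowest value among the 20637 genes at that time. It was computed on background-corrected intensities, with both dexamethasone arrays near the background level of 91.7. Over all 47 alternatives the difference ran from -2.63 to -1.91. The weakest of these values was smaller in size than every Mcm5 value at 24 h over the same alternatives. The size of the Mcm3 fall and its place before Mcm5 thus depended on the processing.

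Mcm5, the partner of Mcm3 in the ring, had 620.2 and 569.8 with dexamethasone at 24 h, against 2279.3 and 2566.4 with vehicle. At 18 h the dexamethasone arrays read 721.9 and 654.3, against 2763.5 and 2260.3 for vehicle. The replicates of each group were close together relative to the gap between groups, and the 24 h fall was 4.26-fold (log2 difference -2.09, SE 0.28, adjusted p = 1.05e-05). Mcm2, the subunit that also binds histones, gave 279.6 and 451.4 with dexamethasone at 24 h, against 1210.8 and 978.1 with vehicle. Its spread between replicates was wider at 24 h than at 18 h (316.3 and 344.5, against 1015.1 and 1065.2), without any overlap, and the 24 h fall was 3.30-fold (adjusted p = 3.03e-06).

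The other subunits, Mcm4, Mcm6 and Mcm7, which form a subcomplex with helicase activity of its own, had smaller differences. Mcm4 read 2851.1 and 3852.3 with dexamethasone at 24 h, against 9584.9 and 7638.8 with vehicle, a fall of 2.60-fold (log2 difference -1.38, SE 0.20, adjusted p = 3.39e-05). Mcm7 read 367.8 and 319.1 with dexamethasone, against 770.5 and 872.4 with vehicle, a fall of 2.55-fold (adjusted p = 0.000109). At 18 h Mcm4 read 3019.0 and 3047.8 with dexamethasone, against 7541.4 and 7918.3 with vehicle, and its groups were further apart than its replicates at both times. For Mcm7 the 18 h values were 402.9 and 375.3, against 751.7 and 743.4, with replicates likewise close together (log2 difference -1.01, adjusted p = 0.00376). On the probe used, Mcm6 was lower by less: 2628.5 and 1717.0 with dexamethasone at 24 h, against 4073.5 and 4572.6 with vehicle, or 2.05-fold (log2 difference -1.04, SE 0.25, adjusted p = 0.0124). Its further bright probes, given below, fell by more at 24 h. The 18 h values were 1986.6 and 1674.8, against 3534.1 and 3950.7 (log2 difference -1.05, adjusted p = 0.0119). The Mcm6 calls and the 18 h Mcm7 call were lost in some fits without 1 array, which leave 1 array in a group. Without the first or second vehicle array at 24 h the Mcm6 difference was -1.12 or -0.95 (SE 0.31). At 18 h it was -1.13 or -0.97. Without the second dexamethasone array at 18 h the difference was -0.92 for Mcm6 and -0.95 for Mcm7. Without the first vehicle array at 18 h that of Mcm7 was nearly unchanged. A lost call here therefore does not show that 1 array carried the difference. Without the second dexamethasone array at 24 h the Mcm6 difference was -0.72 (adjusted p = 0.251), and without either vehicle array of that time its adjusted p was 0.0591 or 0.158. At 18 h the Mcm6 call was lost without the second dexamethasone array (0.201) or either vehicle array (0.0667 or 0.157), and the Mcm7 call without the second dexamethasone array (0.0687) or the first vehicle array (0.050, just over the threshold). Over all 47 alternatives the adjusted p of Mcm6 ran from 0.000734 to 0.251 at 24 h and from 1.07e-06 to 0.201 at 18 h, and that of Mcm7 at 18 h from 4.50e-08 to 0.0950.

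The loading factors fell as well. Cdc6, the ATPase that works with the origin recognition complex, had 140.9 and 187.0 with dexamethasone at 24 h, against 537.5 and 490.3 with vehicle. At 18 h its dexamethasone arrays read 163.1 and 155.6, against 530.2 and 539.5 for vehicle. Dexamethasone arrays were thus at about the same level at both times, and the fall was 3.76-fold at 24 h (log2 difference -1.91, SE 0.20, adjusted p = 3.09e-07). Cdt1, which brings the ring to the origin, read 608.6 and 548.1 with dexamethasone at 24 h, against 1932.7 and 1767.1 with vehicle. At 18 h it read 518.6 and 484.4, against 1857.4 and 1858.1. The smallest adjusted p among the members at 12, 18 and 24 h belonged to Cdt1 each time (1.67e-06, 2.01e-08 and 1.74e-07), with a fall of 3.34-fold at 24 h. Mcm10, which acts after loading, had 262.0 and 274.0 with dexamethasone at 24 h, against 1153.2 and 926.9 with vehicle, a fall of 4.28-fold (log2 difference -2.10, SE 0.25, adjusted p = 1.87e-06). Its 18 h values were 266.9 and 289.2, against 1126.7 and 1057.2, so the dexamethasone arrays of the 2 times lay within 1 narrow range.

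Gmnn, the inhibitor of Cdt1, was the member that did not pass the test at any time in the fit of all arrays. Fitted on the 18 h arrays alone it was called at 18 h (-0.50, adjusted p = 0.0448), and over all 47 alternatives its adjusted p at 18 h ran from 0.0448 to 1.00. Its intensity at 18 h was 89.3 and 75.7 with dexamethasone, both not above background, against 102.0 and 100.9 with vehicle, which makes it at least 1.17-fold lower when set against the background level. At 24 h it was 98.4 and 86.4 with dexamethasone, against 109.9 and 158.7 with vehicle. The groups did not overlap at either time, but the vehicle arrays at 24 h differed between themselves by as much as the groups did. The 24 h difference was -0.75 (SE 0.32, 95% interval -1.41 to -0.09, adjusted p = 0.306), an interval that reaches from near 0 to beyond the value of Mcm6. A weak signal near background limits what can be read from Gmnn here.

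**Figure D2:**
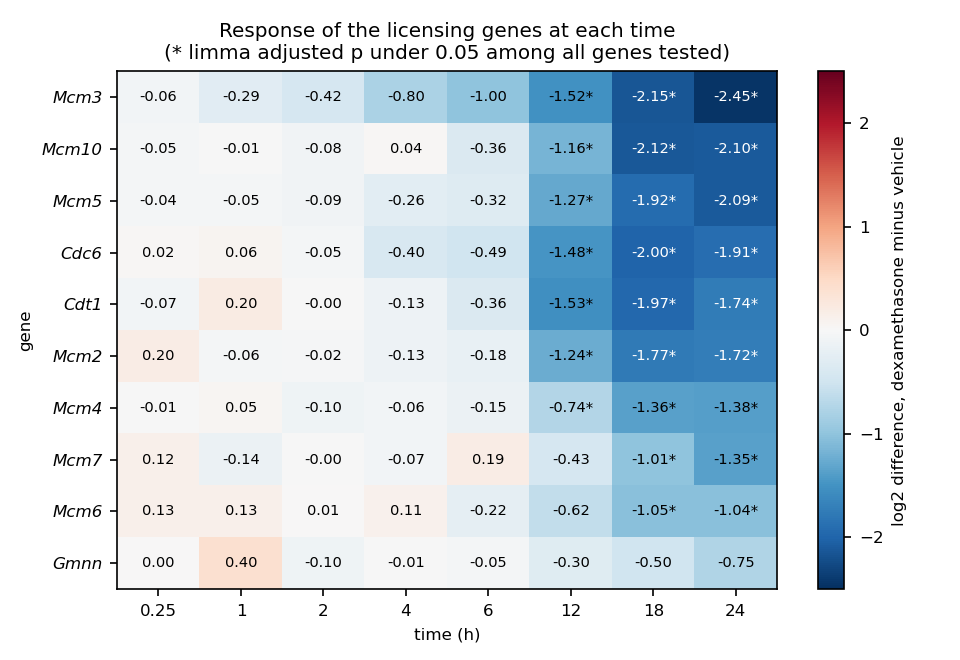
Log2 difference, dexamethasone minus vehicle, of each licensing gene (rows, ordered by the 24 h value) at each time in hours (columns), in colour and as a printed value; an asterisk marks a limma adjusted p under 0.05 over all 20637 genes. Asterisks appear from 12 h on, 7 at 12 h and 9 each at 18 h and 24 h.

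Before 12 h no member was called by limma. This was so at 0.25 h, 1 h, 2 h, 4 h and 6 h (0 of 10 each time), when 0%, 0.0678%, 0.707%, 2.36% and 2.08% of all genes were called in either direction. At an unadjusted p under 0.05, 0 members passed at the earliest 3 of these times and 2, Mcm3 and Cdc6, at 4 h and at 6 h. The share of all genes at that unadjusted threshold is not given here. The 6 glucocorticoid-receptor targets examined as a check, such as Fkbp5, were all higher at 6 h (median log2 difference 2.72). Over the arrays from 0.25 h to 4 h the intensity of Cdt1 ran from 1083.4 to 1642.6 with dexamethasone, against 1123.3 to 1726.2 with vehicle. Cdc6 ran from 328.5 to 600.9 with dexamethasone over the same times, against 326.1 to 601.4 with vehicle. The ranges overlapped in both genes, with medians for Cdc6 of 369.5 with dexamethasone and 456.4 with vehicle. They pool several times, so the overlap cannot tell whether the treatments differed at any single time. At 4 h itself the Cdc6 difference was -0.40 (limma, adjusted p = 0.386). Cdc6 moved with time in both treatments: its 8 arrays at 0.25 h and 1 h read 326.1 to 377.0, and its 6 arrays at 2 h read 526.2 to 601.4, a description with no test. Marker levels moved at the same step: the summed microglial signal was 13.2 to 13.9 at 0.25 h and 1 h and 10.8 to 11.5 at 2 h (log2), and the part of this in the Cdc6 levels was not tested.

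Mcm3 had the lowest differences of the members at 1 h (-0.29), 2 h (-0.42) and 4 h. At 4 h it read 184.5, 258.0 and 327.1 with dexamethasone, against 332.3, 404.6 and 502.8 with vehicle. It was the only member whose groups did not overlap at 4 h, which held for 7.84% of all genes. The 4 h difference was -0.80 (SE 0.32, adjusted p = 0.346). Same-numbered arrays deviated together at 4 h, and with the replicate number as a block at every time the adjusted p was 0.00393, in a fit that called 6.46% of all genes. With the block at 2 h and 4 h only it was 0.134, and over all 47 alternatives it ran from 0.00393 to 0.875.

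At 6 h, 7 of the 10 members had both dexamethasone arrays below both vehicle arrays (not Mcm4, Mcm7 and Gmnn), as did 27.8% of all genes. The median difference was -0.27. Mcm3 read 210.3 and 169.0 with dexamethasone, against 314.9 and 370.2 with vehicle (log2 difference -1.0, adjusted p = 0.359), and Cdc6 had a difference of -0.49 (adjusted p = 0.415). Whether a member was called at 6 h depended on how the spread was estimated. Fitted on the 6 h arrays alone, Mcm3 (adjusted p = 0.00121) and Cdc6 (0.0223) were called, and with array weights also Cdt1 (0.0199). These fits called 9.87% and 11.2% of all genes. The replicate block called 1 member, Mcm3, and 5.25% of all genes. Over all 47 alternatives the adjusted p at 6 h lay between 0.00121 and 1.00 for Mcm3, between 0.00325 and 1.00 for Cdc6 and between 0.0199 and 1.00 for Cdt1.

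At 12 h, 7 of 10 members had fallen (3.47% of all genes were called lower), with a median of -1.20. Cdt1 read 510.1 and 676.0 with dexamethasone, against 1480.3 and 1785.6 with vehicle (log2 difference -1.53, SE 0.18, adjusted p = 1.67e-06). Cdc6 read 228.8 and 153.5 with dexamethasone, against 425.8 and 494.4 with vehicle (log2 difference -1.48, SE 0.20, adjusted p = 1.95e-05). The groups of both genes lay well apart. Mcm2 had 553.7 and 447.5 with dexamethasone, against 1122.4 and 1131.1 with vehicle (log2 difference -1.24, adjusted p = 0.000378). The other genes called at 12 h were Mcm3 (-1.52), Mcm5 (-1.27), Mcm10 (-1.16) and Mcm4 (-0.74). Mcm6 (-0.62, adjusted p = 0.177), Mcm7 (-0.43, adjusted p = 0.311) and Gmnn (-0.30, adjusted p = 0.752) did not pass. The replicates of Mcm10 and Mcm7 were less alike at 12 h than at 18 h. Mcm10 read 373.5 and 585.4 with dexamethasone, against 841.8 and 1193.7 with vehicle, and Mcm7 read 625.4 and 387.0, against 761.0 and 554.4, so that its groups overlapped. With the replicate number as a block, at a time when same-numbered arrays deviated together, Mcm6 was called as well (adjusted p = 0.0231), in a fit that called 18.6% of all genes in either direction. Over all 47 alternatives the adjusted p of Mcm6 at 12 h ran from 0.0231 to 0.907. Array weights left 3 of the 7 calls (Mcm2, Cdc6 and Cdt1), when 1.42% of all genes were called, and the 12 h arrays fitted alone left 0, when 0.111% were called. All arrays together called 5.67% of genes in either direction. Leaving out 1 array left 5 to 7 calls. Without the first dexamethasone array of 12 h Mcm3 (-1.25, adjusted p = 0.115), Mcm4 (-0.60, 0.138) and Mcm10 (-0.81, 0.0843) were not called and Mcm7 was (-0.80, 0.0318). Without the first vehicle array, which stood apart in marker levels, 5 members were called (5.39% of all genes in either direction): Mcm2, Mcm5, Mcm10, Cdc6 and Cdt1. Mcm3 (-1.42, adjusted p = 0.0926) and Mcm4 (-0.59, adjusted p = 0.180) were not. The second vehicle array decided the call of Mcm10 (0.0690). The groups did not overlap at 12 h for 8 members, against 18.9% of all genes.

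The late response was set against the early one directly. The mean response at 12, 18 and 24 h minus that at 1, 2 and 4 h was lower for 9 of the 10 members, against 3.02% of all genes, with a median of -1.52. An F-test across the 8 responses was passed by 8 members, against 2.74% of all genes; Mcm6 (adjusted p = 0.0710) and Gmnn (1.00) did not pass. Neighbouring times were told apart less well. The response at 12 h minus that at 6 h ran from -1.17 (Cdt1, adjusted p = 0.0536) to -0.25 (Gmnn), with 0 members called by limma (0.107% of all genes). At an unadjusted p under 0.05 there were 7 members, a count given without the share of all genes at that threshold. With the replicate number as a block at every time 4 were called, beside 2.86% of all genes, and without the first vehicle array of 12 h 1 (Cdt1, -1.31, adjusted p = 0.0407), beside 0.179%. The response at 18 h and 24 h minus that at 12 h ran from -0.95 for Mcm10 to -0.33, again with 0 called (0.228% of all genes). With the block 3 were called, beside 4.00% of all genes. At an unadjusted p under 0.05 there were 4 in the fit of all arrays, again without the share of all genes.

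**Figure D3:**
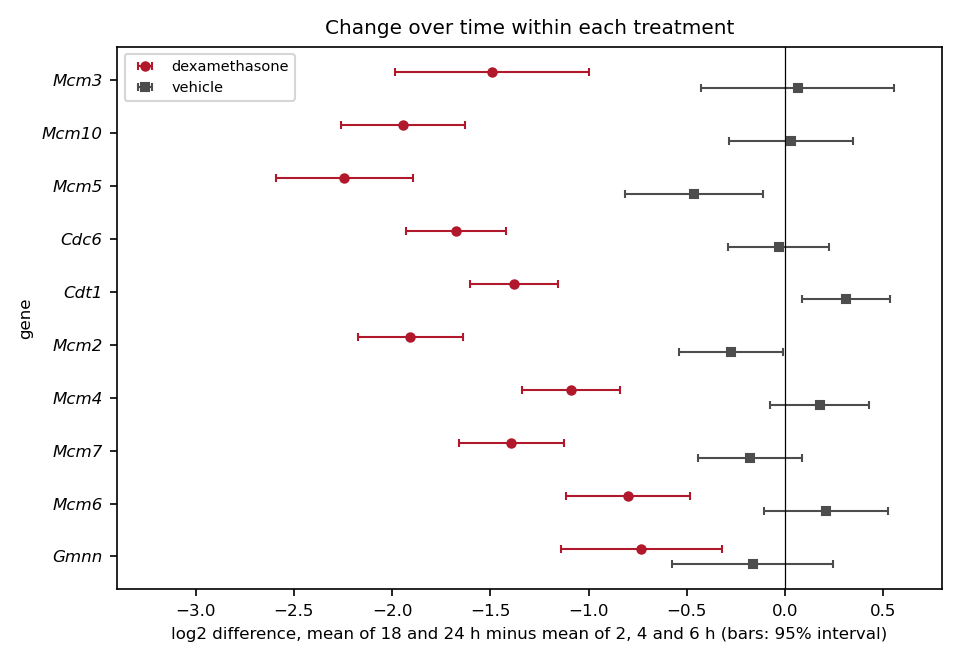
Log2 difference between the mean of 18 h and 24 h and the mean of 2 h, 4 h and 6 h within dexamethasone arrays (red circles) and within vehicle arrays (grey squares) for each licensing gene; bars are 95% intervals from the limma fit. All 10 dexamethasone values lie below 0, from -2.24 to -0.73, and the vehicle values lie between -0.46 and 0.31.

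Because every time had its own vehicle arrays, the levels could be followed within each treatment. The vehicle labels at 2 h, 4 h and 6 h carry a suffix of unstated meaning that the later vehicle labels lack. Whatever it stands for cannot be told apart from time in the vehicle change. Within dexamethasone arrays all 10 members were lower at 18 h and 24 h than at 2 h, 4 h and 6 h (14.7% of all genes were called lower). The change was -2.24 for Mcm5, -1.94 for Mcm10 and -1.91 for Mcm2, and Gmnn passed here as well (-0.73, SE 0.20, adjusted p = 0.00731). In vehicle arrays the same change had a median of -0.00, and 0 members were called lower by limma (11.0% of all genes). At an unadjusted p under 0.05, 2 members were lower, with no share of all genes given at that threshold. Cdt1 was called higher (0.31, SE 0.11, adjusted p = 0.0439, where 9.09% of all genes were called higher), a call that came and went with the settings (adjusted p from 0.00141 to 0.176 over 44 alternatives). Mcm5 had the lowest vehicle value, -0.46 (adjusted p = 0.0552). Cdt1 was the member called in opposite directions within dexamethasone and within vehicle.

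Several members had more than 1 probe, and 18 of the 20 probes passed the background filter. The probe with the highest mean stands for the gene in the values above. Mcm6 had 2 further probes well above background, and both were called at 12 h (-0.97, adjusted p = 0.00688, and -1.10, adjusted p = 0.0164), when the probe used was not. At 24 h these probes gave -1.32 and -1.35, so the size for Mcm6 depends on the probe. The second Mcm10 probe was not above background on either dexamethasone array at 18 h and 24 h and was at least 2.25-fold and at least 3.20-fold lower there. Dim further probes of Mcm4, Mcm6, Mcm7 and Cdc6, each close to background on many arrays, did not pass at 12 h or 24 h. Averaging them with the brighter probes took away the calls of Mcm4 at 12 h (-0.15, adjusted p = 0.872), at 18 h (-0.81, adjusted p = 0.118), at 24 h (-0.94, adjusted p = 0.0511), on the average over times (-0.24, adjusted p = 0.0945), late minus early (-0.63, adjusted p = 0.0950) and within dexamethasone (-0.36, adjusted p = 0.123).

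Levels of the members varied together across the 36 arrays. The correlation of a gene with the mean of the other 9 was 0.95 for Cdc6, 0.94 for Cdt1 and Mcm10, 0.92 for Mcm4, 0.90 for Mcm2 and 0.89 for Mcm5. It was 0.80 for Mcm7 and Mcm3, 0.71 for Mcm6 and 0.52 for Gmnn. These arrays share treatment and time, and once group means were removed the same correlation ran from -0.48 for Mcm3 to 0.48 for Mcm10. The genes outside the list whose pattern over the 36 arrays was most like the members' mean were Tyms-ps (r = 0.95), a copy of the thymidylate synthase gene whose probe may also read Tyms, Brip1 (0.95), a DNA helicase of the repair machinery, Rnaseh2b (0.94), a subunit of ribonuclease H, Kntc1 (0.94), of the kinetochore, and the probe labelled 4833427B12Rik, a synonym of Gins2 (0.93). Their 24 h differences were -1.73, -1.76, -1.15, -1.82 and -1.64.

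**Figure D4:**
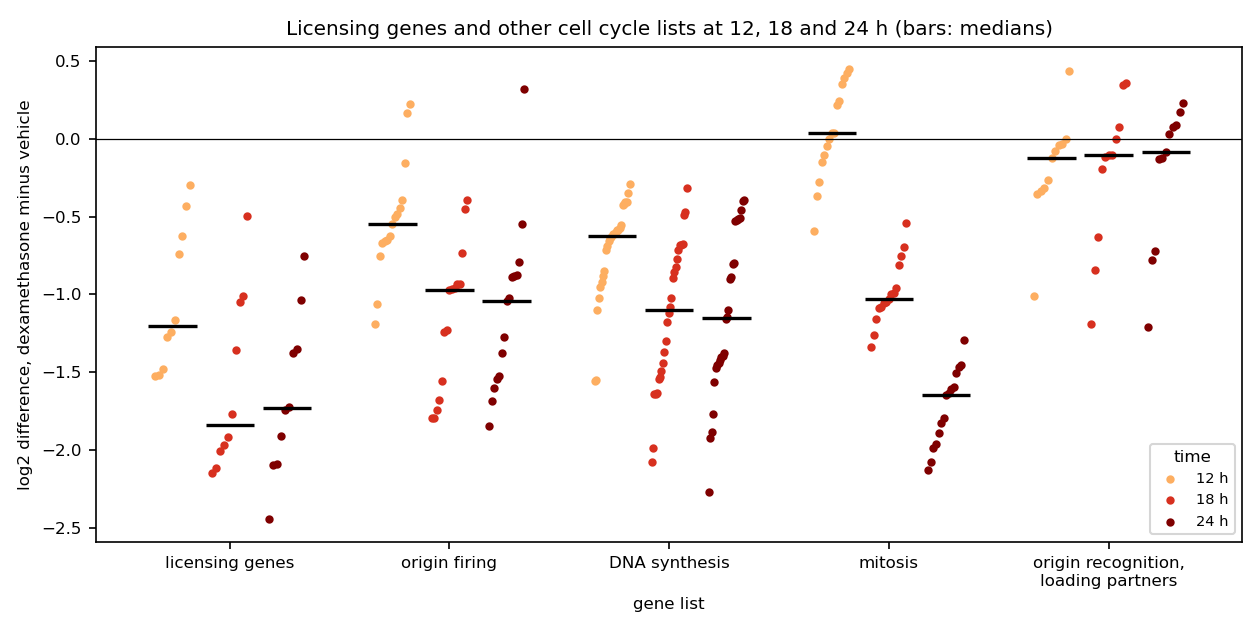
Log2 difference, dexamethasone minus vehicle, of every gene tested (points) in the licensing genes and in 4 lists of related genes at 12 h, 18 h and 24 h (light to dark); black bars are medians. The licensing genes have medians of -1.20, -1.84 and -1.73, and the mitosis list moves from 0.04 at 12 h to -1.64 at 24 h.

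The steps on either side of loading were described from lists of related genes. For these lists, lower calls over all genes made up 3.47% at 12 h, 1.96% at 18 h and 2.03% at 24 h. Of 11 genes for origin recognition and for partners of the ring, 3 were lower at 24 h: Hat1, a histone acetyltransferase (-1.21), Orc6 (-0.78) and Orc1 (-0.72), both subunits of the origin recognition complex. The list's median was -0.08, and Orc2 (-0.08), Orc3 (0.17), Orc4 (0.23), Orc5 (0.09), Mcm8 (0.03) and Mcm9 (-0.12) did not pass. Of 15 genes for origin firing, 11 were lower at 24 h and 12 at 18 h, with medians of -1.04 and -0.97. They included Gins2 (-1.85) and Cdc45 (-1.55), partners of the ring in the active helicase, and Clspn (-1.69) and Timeless (-1.60), which travel with the fork. Cdc7 (-1.38) and its activator Dbf4 (-1.27), the kinase that triggers firing, were lower too.

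DNA synthesis genes behaved in the same direction: 15 of 26 were lower at 24 h and 8 at 12 h, with medians of -1.15 and -0.62. Tk1, which salvages thymidine, stood at -2.27 at 24 h, Chaf1b, of the histone chaperone CAF-1, at -1.92, Lig1, the replicative ligase, at -1.77 and Rfc3, of the clamp loader, at -1.41. Pcna, the clamp itself, had a 24 h difference of -0.90 that did not pass (adjusted p = 0.238). Of 13 genes for turnover of licensing factors and S-phase kinases, 3 were lower at 24 h: Ccna2 (-1.30), Skp2, which marks Cdt1 for destruction (-1.17), and Cdk2 (-0.99). Fzr1, an activator of the anaphase-promoting complex, was called on the average over times (-0.30) and not at 24 h (-0.53, adjusted p = 0.195). Of 14 E2F and pocket-protein genes, 3 were lower at 24 h, Rbl1 (-1.27), E2f2 (-1.27) and E2f1 (-0.94), and Tfdp2 was higher on the average over times (0.23).

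Calls of mitosis genes began at a later time in the fit of all arrays. At 12 h, 0 of 15 were called by limma (2 higher and 1 lower at an unadjusted p under 0.05) and their median was 0.04, when 7 of the 10 licensing genes had fallen; at 18 h 9 were lower and at 24 h all 15 tested, with medians of -1.03 and -1.64. Mki67, a marker of cycling cells, had -0.59 at 12 h (adjusted p = 0.131) and -1.99 at 24 h, and Cdk1, the mitotic kinase, had 0.04 and -1.96. Top2a, a topoisomerase of dividing cells, had 0.00 and -2.13, and Bub1b, of the spindle checkpoint, -0.28 and -1.83. The difference between the lists was not tested.

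Markers of other cells also differed at 12 h. Lower calls made up 3.47% of all genes at 12 h, 1.96% at 18 h and 2.03% at 24 h, and a count of 1 in a short list is a description only. Of 11 microglial markers 3 were lower at 12 h (Aif1 -1.56, Cx3cr1 -1.55 and P2ry12 -1.25; list median -1.03), and 0 at 18 h and 24 h (medians -0.01 and -0.11; 1 lower at each time at an unadjusted p under 0.05). The 12 h value rests on 1 array: the log2 of the summed microglial signal was 11.2 and 10.4 with dexamethasone, against 13.2 and 10.5 with vehicle, and without the first vehicle array 0 microglial markers were called by limma (median -0.09). Of 4 ependymal markers 4 were lower at 12 h (median -0.90; 1 without that array, median -0.55), and 1 at 18 h and at 24 h, where the median was -0.56 both times and 3 were lower at an unadjusted p under 0.05. Oligodendrocyte-lineage markers had 1 of 11 lower at 12 h (without that array, 0 lower and 1 higher) and 0 later, fibroblast, meningeal and pericyte markers 1 of 6 higher at each of these times, and neuronal markers 0 of 5. Endothelial markers had 1 of 6 higher at 24 h. Astrocyte markers had 1 of 9 higher and 1 lower at 12 h, 2 higher at 18 h, and 2 higher and 1 lower at 24 h. The share of all genes called higher at these times is not given here, so the higher counts are descriptions only. The log2 of the summed microglial signal over 12 h to 24 h ran from 10.4 to 11.8 with dexamethasone, against 10.5 to 13.2 with vehicle, and the ependymal one from 12.0 to 13.1, against 12.9 to 13.6. Of the listed microglial markers 9 were above background on all arrays and 1 on none. The differences of all 10 licensing genes were further below 0 at 18 h and 24 h than at 12 h. For that step 0 members were called by limma (lowest adjusted p = 0.344), beside 0.228% of all genes. What part cell content had in the differences of the licensing genes was not tested.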

How the data were processed

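Total RNA of mouse astrocyte cultures was measured on 36 Illumina BeadChip arrays, read with GenomeStudio per the submitters' processing notes (version not given in the sources used here). The deposited table holds 1 intensity per probe and array, linear, from 44.8 to 49460.6. These intensities had been quantile normalized by the authors, as the values show: array medians run from 93.7 to 94. From the other deposited table only gene symbols were read; its 72 value columns match no sample label and were not used here, so the detection p filter and joint correction with negative controls that had been planned were replaced.

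Intensities were corrected by normexp (offset 16) and put on the log2 scale. The background level was the 99th percentile of the spread below the mode of all intensities (70.2), mirrored: 91.7, or 5.84 corrected. A probe had to exceed it on 2 arrays or more, and each symbol was represented by its probe of highest mean, giving 20637 genes after 40 probes with date-like and 18 with several symbols were left out. On each array 51.4% to 51.5% of probes lay above background; signal over background limits these values. The 36 arrays were fitted together as 16 group means with limma 3.58.1 in R 4.3.3 (20 residual and 5.23 prior degrees of freedom), Benjamini-Hochberg adjustment within each comparison and calls at an adjusted p under 0.05. Counts at an unadjusted p under 0.05 are descriptions only, as the share of all genes at that threshold is not given here. The fit and the calls were tested on simulated data. The simulated arrays varied independently of each other, so this test does not cover same-numbered arrays that deviate together. No pair of arrays held identical values. Scan dates and slides were not used here. "At least" folds are against the background level.

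Replicate numbers come from the labels. All vehicle labels at 2 h, 4 h and 6 h, and no others, end in the suffix _2, whose meaning is not stated. Whatever it stands for cannot be told apart from treatment at those times, which also enter the comparisons between times. Same-numbered dexamethasone and vehicle arrays deviated together at 2 h (r = 0.86, 0.68 and 0.77) and 4 h (0.57, 0.35 and 0.54), with 3 pairs each; at the times with 2 pairs r was 0.80 at 0.25 h, 0.73 at 1 h, 0.03 at 6 h, 0.51 at 12 h, -0.05 at 18 h and -0.13 at 24 h.

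The members, lists, comparisons and motifs were chosen with earlier results of these data known; the comparisons of 12 h with 6 h and of 18 h and 24 h with 12 h, and the marker lists at 12 h without the first vehicle array, were added last, after seeing the data. Named genes are all members, up to 4 called genes of each list with the largest average change, and the 5 genes of most similar pattern; the other list genes given were chosen after their values were seen. Lists were matched through RefSeq synonyms. Promoters are from RefSeq, GRCm38.p6. Plots were made in Python 3.11.15 (matplotlib 3.10.9).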

Additional observations from a re-analysis of the deposited data

Results flagged for a closer look

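The response to dexamethasone differed between times by a test of that difference. The mean response at 12, 18 and 24 h minus the mean response at 1, 2 and 4 h was -1.77 for Mcm10, -1.77 for Cdt1, -1.67 for Cdc6, -1.63 for Mcm5, -1.53 for Mcm3, -1.51 for Mcm2, -1.12 for Mcm4, -0.99 for Mcm6 and -0.86 for Mcm7 on the log2 scale. By the F-test across all 8 responses the adjusted p was 2.02e-07 for Cdt1, 3.27e-06 for Cdc6, 1.91e-05 for Mcm2, 2.94e-05 for Mcm10, 0.000492 for Mcm5, 0.000733 for Mcm4, 0.00535 for Mcm7 and 0.0336 for Mcm3 (limma).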

How the results depend on the processing

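With 2 or 3 arrays a group and weak signals for Gmnn and Mcm3, precision is limited by array number and signal over background. The counts of members called on the average over times, at 18 h and 24 h, late minus early, across the 8 responses and within dexamethasone stayed within 1.5 times under the alternatives run. Others moved. At 4 h, 1 member was called with the replicate block (6.46% of all genes, 2.36% in the fit of all arrays); at 6 h, 3 with array weights (11.2%), 2 with only the arrays of that time (9.87%) and 1 with the replicate block (5.25%), against 2.08% of all genes with none of these. At 12 h, 3 were called with array weights (1.42%) and 0 with only the arrays of that time (0.111%), a fit with fewer arrays behind its spread, against 5.67%. The vehicle change over time had 0 without a filter on low values, 2 with a stricter filter or the mean of kept probes and 3 with array weights. The 12 h minus 6 h response had 1 without background correction, with offset 50, with the stricter filter, with the mean of kept probes and with the block at 2 h and 4 h only (chosen after seeing the data), and 4 with the replicate block at all times (2.86% of all genes); the response at 18 h and 24 h minus 12 h had 3 with that block (4.00%). The replicate block also added Mcm6 at 12 h, ended no call, and could not be fitted for changes over time within a treatment. Leaving out 1 array gave 9 members on the average, 5 to 7 at 12 h, 7 to 9 at 18 h, 8 to 9 at 24 h, 9 late minus early, 7 to 9 across the responses, 9 to 10 within dexamethasone, 0 to 2 within vehicle, 0 to 1 for 12 h minus 6 h, and 0 otherwise. Single arrays ended the calls named in the report and that of Gmnn within dexamethasone (-0.63 without the second 18 h array). Of 561 called values under the other alternatives 22 lost their call and of 1944 with 1 array left out 28 did; 0 called values changed sign. The 6 called values that moved over 1.5-fold did so with the mean of kept probes: Mcm4 at 12 h (-0.15), Cdc6 at 18 h (-1.17), at 24 h (-1.22) and late minus early (-0.99), and Mcm4 (-0.36) and Mcm7 (-0.77) within dexamethasone; that mean also ended calls of Mcm7 on the average, at 18 h and late minus early. The cause was not tested.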
